A study of Mus musculus with 53 samples.

Results

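Interferon-stimulated genes, the antiviral genes that cells switch on when they receive an interferon signal, were followed through 3 forms of liver challenge in mice. The set has 46 members, chosen by gene symbol: 40 type I-like members, which answer mainly to type I interferon, and 6 interferon-gamma GTPases (Gbp2, Gbp3, Gbp7, Igtp, Iigp1 and Irgm1). All 46 were found in each of the 3 deposited count tables, among 36410 genes present in all tables and 55262 present in any. A low-count filter kept 46 members in the diet experiment, 45 after carbon tetrachloride (CCl4; Ifit3b was left out) and 42 in the hepatectomy experiment (Ifit3b, Mx1, Oas1g and Oas3 were left out).

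Whole liver of male C57BL/6J mice was profiled by messenger RNA sequencing in 53 libraries, in a study of the growth factor gene Bmp8b under dietary, chemical and surgical injury. In the diet experiment, wild-type mice on a low-fat control diet (n = 9), wild-type mice on a Western diet (n = 7) and mice labelled Bmp8b knockout on the Western diet (n = 7) were fed for 32 weeks. The labels give the mice of this experiment an age of 9 weeks. In the CCl4 experiment, mice aged 16 weeks received 2 µl per g body weight of olive oil (wild type, n = 6) or of an equal mix of CCl4 and olive oil (wild type, n = 4, and labelled knockout, n = 6), and livers were taken 3 days later. In the hepatectomy experiment, livers came from mice aged 16 weeks. They were the liver removed at surgery on day 0 (wild type, n = 5) and the regenerating liver on day 3 (wild type, n = 5, and labelled knockout, n = 4). The wild-type day 0 and day 3 livers share the numbers 12 to 16. Whether the same mice gave both is not stated, and the main fit treated the livers as unpaired. The knockout is of the whole animal as the labels describe it, the wild-type mice are described as littermates, and no knockout-labelled mouse was sampled without a challenge.

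Interferons bind receptors on the cell surface and act through JAK kinases and STAT transcription factors. Type I interferons act through a complex that holds STAT2 and IRF9 and binds the interferon-stimulated response element (ISRE), while interferon gamma acts through STAT dimers at gamma-activated sites (GAS) and is the main inducer of the GTPases that attack the vacuoles of intracellular parasites. In the liver, hepatocytes, endothelial cells and resident macrophages all respond, and the induced proteins sense viral RNA, degrade it, block its translation or damp the response itself.

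The promoters of the members carry these elements in their letters. RefSeq promoter windows (GRCm38.p6, 250 bases before to 50 after the start) were matched by symbol for 33 of the 46 members. The ISRE-like letters, GAAA then any 2 bases then GAAA on either strand, were present in 20 of these 33 genes (60.6%), against 3.99% of 27025 genes with a window of the same length, and 10 members (30.3%) held at least 2 matches, against 0.266% of all genes. The GAS-like letters TTCNNNGAA were present in 7 members (21.2%), against 9.55% of all genes. All 5 GTPases with a window held the ISRE-like letters and 2 of them also the GAS-like ones, while 15 of 28 type I-like members (53.6%) held the ISRE-like letters. A total of 5 members held both kinds, 11 held neither, and in Bst2 the 2 kinds overlapped. A match is a description of the letters and not a measured binding site.

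Among the 11 members that held neither kind were Irf7 and Oasl2, whose responses are given below. Stretches before the start of 5 members that do hold matches are shown as examples, 3 antiviral effectors and 2 GTPases. They are written 5′ to 3′ along the gene's strand, with motif matches in capitals. Isg15 lies at chr4:156200819-156201068 on the minus strand and holds 3 ISRE-like matches that overlap, Ifit1 at chr19:34640639-34640870 on the plus strand holds 2, and Rsad2 at chr12:26456453-26456702 on the minus strand holds 1. Gbp3 at chr3:142559794-142560025 on the plus strand holds 2 ISRE-like matches that overlap, and Igtp at chr11:58199306-58199555 on the plus strand holds 1 ISRE-like and 1 GAS-like match.
Isg15: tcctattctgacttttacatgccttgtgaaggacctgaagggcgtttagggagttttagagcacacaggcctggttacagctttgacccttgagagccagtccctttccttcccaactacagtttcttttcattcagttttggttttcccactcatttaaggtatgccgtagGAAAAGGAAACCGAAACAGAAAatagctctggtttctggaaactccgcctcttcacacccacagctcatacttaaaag
Ifit1: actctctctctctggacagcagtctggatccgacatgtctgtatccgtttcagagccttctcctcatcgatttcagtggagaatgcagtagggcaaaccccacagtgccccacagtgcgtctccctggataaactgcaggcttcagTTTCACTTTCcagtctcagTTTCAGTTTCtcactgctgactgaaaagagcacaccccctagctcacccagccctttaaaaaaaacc
Rsad2: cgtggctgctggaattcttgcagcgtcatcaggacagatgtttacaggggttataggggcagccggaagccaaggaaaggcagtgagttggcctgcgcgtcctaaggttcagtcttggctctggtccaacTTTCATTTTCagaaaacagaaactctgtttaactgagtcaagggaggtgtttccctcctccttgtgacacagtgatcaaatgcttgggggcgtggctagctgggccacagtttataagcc
Gbp3: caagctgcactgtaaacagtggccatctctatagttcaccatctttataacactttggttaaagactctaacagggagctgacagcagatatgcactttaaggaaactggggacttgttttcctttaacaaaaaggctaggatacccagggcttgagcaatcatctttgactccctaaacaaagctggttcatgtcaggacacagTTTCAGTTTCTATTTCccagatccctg
Igtp: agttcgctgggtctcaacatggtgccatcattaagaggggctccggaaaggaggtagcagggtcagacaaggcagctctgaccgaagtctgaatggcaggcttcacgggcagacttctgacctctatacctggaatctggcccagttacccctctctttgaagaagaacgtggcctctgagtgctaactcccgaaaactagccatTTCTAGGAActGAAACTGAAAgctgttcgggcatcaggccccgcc

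Library totals ran from 8963187 to 15196537 counts in the diet experiment, 2661699 to 6364414 after CCl4 and 2450358 to 6914274 in the hepatectomy experiment. Hepatocyte marker genes were abundant in every group, as the tissue label states (5 of 5 markers detected). The count of Bmp8b itself was 0.521 to 1.789 CPM (normalised counts per 1000000 counts of the library) in wild-type and 0.718 to 2.231 in knockout-labelled livers on the Western diet, and 0 to 1.33 against 0.267 to 2.62 after CCl4. On day 3 after hepatectomy it was 0.358 to 1.31 CPM in wild-type and 1.08 to 2.63 in knockout-labelled livers, with a mean of 0.848 against 2.12. The count was thus not lower under the knockout label in any experiment and does not check it, and "labelled knockout" is used throughout. Among CCl4-treated livers, wild-type liver 34 and knockout-labelled liver 35 stood apart: their mean difference from olive oil over 8 mitosis genes was 0.646 and 1.26 on the log2 scale, against 3.78 to 5.94 in the other CCl4 livers. Wild-type Western diet livers 32 and 36 had the lowest mitosis gene means of their group (0.585 and 0.687) and the lowest monocyte and macrophage marker means (1.54 and 1.68). The labels number the livers without stating whether each came from a separate litter or cage, so p-values measure the spread between these samples.

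Levels are given as CPM, and compared between genes only per kilobase of transcript. On that scale the order was led by Bst2, the membrane tether that holds budding virus, in all 9 groups, with a mean level of 117.9 CPM per kilobase on the control diet, 128.7 after olive oil and 166.0 in resected liver. Ifi27, Iigp1 and Lgals3bp were also near the top in each unchallenged group. The members varied more between livers of a group than most genes did in the diet experiment, with a median biological coefficient of variation of 0.251 against 0.155 over all genes tested, and close to the rest in the CCl4 (0.299 against 0.287) and hepatectomy experiments (0.202 against 0.177).

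**Figure D1:**
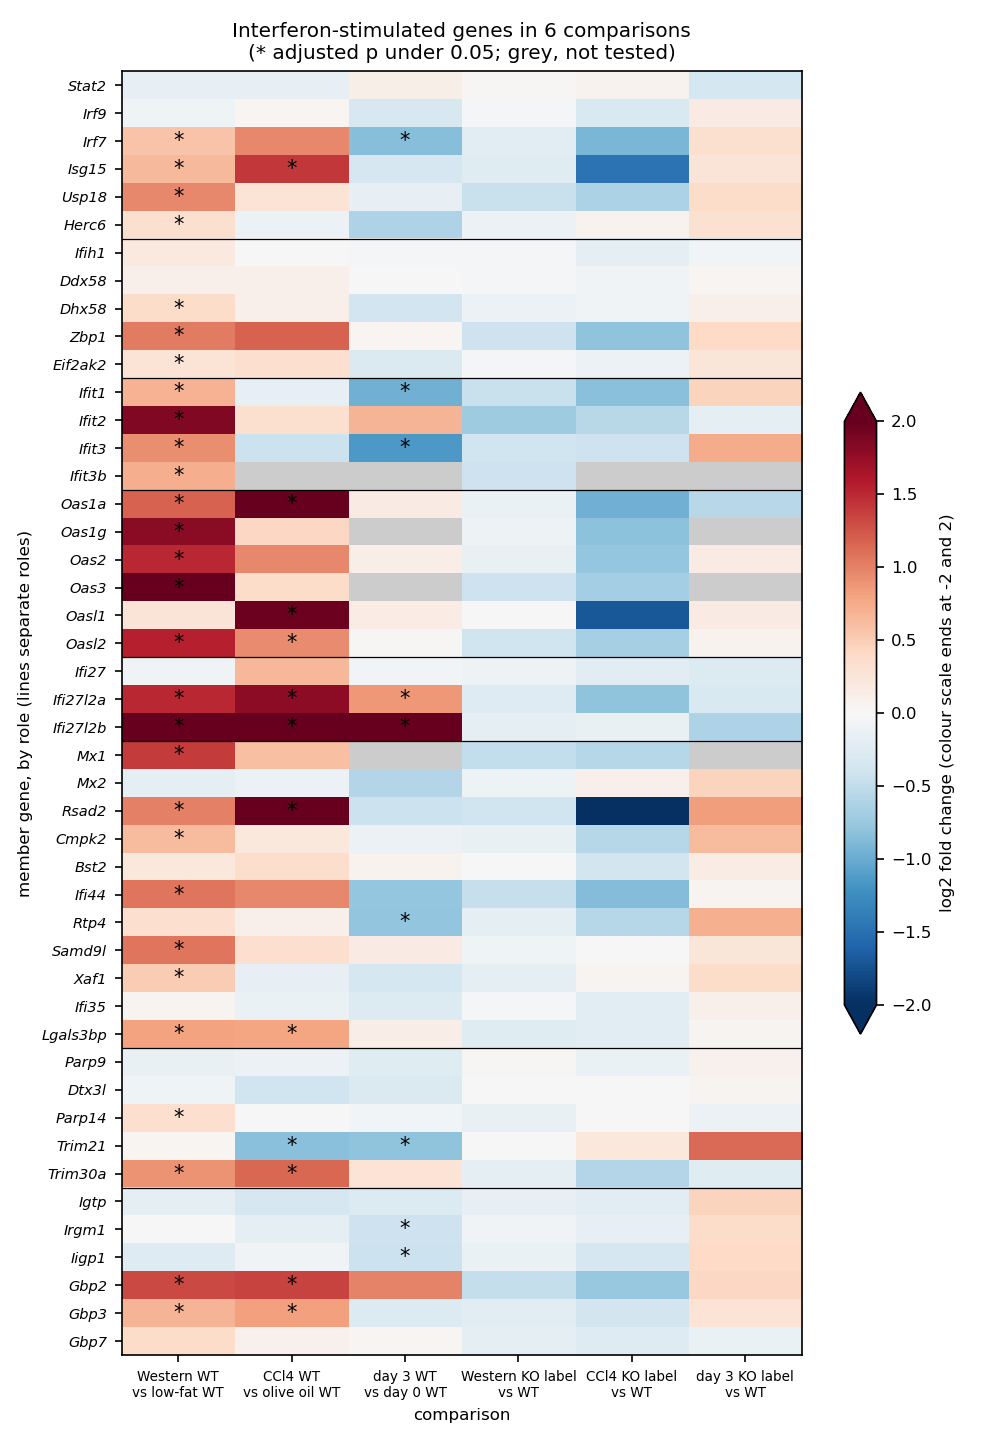
Each line of the heat map is 1 of the 46 members, grouped by role, and each column 1 of 6 comparisons (3 challenges in wild-type livers, then 3 comparisons of knockout-labelled with wild-type livers); colour gives the log2 fold change, the colour scale ends at -2 and 2, stars mark edgeR adjusted p under 0.05 and grey marks members not tested. Stars stand on 29 members in the Western diet column, 12 in the CCl4 column and 9 in the hepatectomy column, and on 0 in the knockout-labelled columns.

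The Western diet raised the antiviral programme broadly in wild-type livers. Against the control diet, 29 of 46 members were called higher and 0 lower (edgeR quasi-likelihood test, Benjamini-Hochberg adjusted p under 0.05 over 13005 genes), where 37.4% of all genes tested were called, 20.4% higher and 17% lower. Among type I-like members 27 of 40 were called higher, with a median log2 fold change of 0.638, and among the GTPases 2 of 6, with a median of 0.188. The median over all genes tested was -0.0226. RNA from whole liver cannot tell a change in the number of cells of a type from a change in RNA per cell. Monocyte and macrophage markers moved with the diet: all 8 were called higher, and their summed level was 46.3 to 123.5 CPM on the control diet and 181.5 to 546.1 on the Western diet, with none at 0. The 13 natural killer and T cell markers summed to 4.22 to 12.6 and 5.87 to 26.5 CPM (3 of 4 tested were higher), and 3 of 5 Kupffer cell markers were higher. All 8 mitosis genes were higher (summed 5.11 to 9.69 and 12.6 to 47.1 CPM), as were 2 of 3 tested neutrophil markers (1.59 to 4.10 and 2.01 to 7.16) and the 1 plasmacytoid dendritic cell marker tested (log2 fold change 1.62, without overlap), while 2 of 5 hepatocyte markers were lower. The part of these cells in the antiviral genes was not tested.

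The largest log2 fold change among the 46 members was that of Ifi27l2b, of the family of small mitochondrial interferon-induced proteins. It was at 2.12, 4.38 and 11.3 CPM (lowest, median and highest liver) on the control diet and at 25.6, 51.2 and 71.7 on the Western diet. The groups did not overlap, and the log2 fold change was 3.22 (SE 0.32, edgeR adjusted p = 2.54e-07). Its close relative Ifi27l2a rose by 1.51 (SE 0.37, edgeR adjusted p = 0.0024), while Ifi27, the family's first-named member, was 107.8 and 110.6 CPM at the medians and was not called (log2 fold change -0.06). The 2 Ifi27l2 transcripts are 87.2% identical over 273 bases, so reads may be shared between them.

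In the family of 2′-5′ oligoadenylate synthetases, enzymes that make the messenger that activates RNase L against viral RNA, 5 of 6 members rose. Oas2 was at 3.61, 4.89 and 5.94 CPM on the control diet and 7.12, 13.6 and 20.9 on the Western diet, again with no overlap, a log2 fold change of 1.5 (SE 0.21, edgeR adjusted p = 1.26e-05). Oas2 and Ifi27l2b were the only 2 of 46 members without overlap, a share near the 4.72% of all genes higher without overlap. Oas3 rose by 2.10 (SE 0.34), Oas1g by 1.81 (SE 0.40) and Oas1a by 1.19 (SE 0.32). Oas1a and Oas1g are 97.5% identical over 1860 bases and their counts are uncertain as a split.

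Of the Oas-like genes, Oasl2 rose and Oasl1 was not called. Oasl2 was 3.35, 6.15 and 7.13 CPM on the control diet and 5.03, 15.8 and 27.3 on the Western diet, with the lowest Western diet liver inside the control range, and rose by 1.56 (SE 0.27, edgeR adjusted p = 9.52e-05). Oasl1, whose protein lacks synthetase activity and inhibits Irf7 translation, was 20.6 CPM at the control median and 26.0 at the Western diet median and was not called (a log2 difference of 0.26, edgeR adjusted p = 0.192).

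All 4 Ifit genes, whose proteins bind foreign RNA ends, were called higher. Ifit2 was 1.77, 3.01 and 5.73 CPM on the control diet and 5.34, 13.4 and 21.6 on the Western diet, with the lowest Western diet liver inside the control range, and rose by 1.86 (SE 0.30, edgeR adjusted p = 5.41e-05). Ifit3 ran from 3.93 to 18.6 CPM around a median of 6.64 on the control diet, and from 6.5 to 22.4 around a median of 15.6 on the Western diet, a log2 fold change of 0.93 (SE 0.25, edgeR adjusted p = 0.0055). Control liver 21 held the 18.6, and the other control livers lay at 3.93 to 7.71, still overlapping the lowest Western diet liver. Ifit3b rose by 0.73 (SE 0.26, a call lost in 7 of 16 fits without 1 liver) but is 97.8% identical to Ifit3 over 1700 bases. Ifit1 rose by 0.69 (SE 0.25, edgeR adjusted p = 0.0353), from a median of 7.81 to 13.1 CPM, a call lost in 9 of the 16 fits that each left out 1 of these livers (highest adjusted p 0.0858, without Western diet liver 17).

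Of the other antiviral genes 7 of 11 were higher. Rsad2 (viperin), which makes a chain-terminating nucleotide, was 4.52, 7.28 and 14.3 CPM on the control diet and 11.8, 15.8 and 21.2 on the Western diet, and rose by 1.01 (SE 0.21, edgeR adjusted p = 0.000511). The GTPase Mx1 rose by 1.40 (SE 0.26), from a median of 1.67 to 4.55 CPM. Its relative Mx2, whose median was 5.72 CPM on the control diet and 4.60 on the Western diet, had a log2 fold change of -0.18 and was not called. Ifi44 and the restriction factor Samd9l each rose by 1.08 (SE 0.32 and 0.18), and Lgals3bp, Cmpk2 and Xaf1 were the other 3 called. Bst2 was high throughout, 87.0, 111.2 and 117.9 CPM on the control diet and 101.0, 115.9 and 152.1 on the Western diet, and was not called (log2 fold change 0.22, edgeR adjusted p = 0.0886); without Western diet livers 32 and 36 it was called.

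Of the signalling members 4 of 6 rose. Isg15, the ubiquitin-like modifier, was 4.52, 6.96 and 14.5 CPM on the control diet and 5.42, 12.3 and 17.3 on the Western diet, a log2 fold change of 0.65 (SE 0.22, edgeR adjusted p = 0.0235). The groups overlapped, with control liver 21 the highest control and Western diet liver 32 the lowest treated liver, and the call was lost without Western diet liver 14 (adjusted p = 0.0558) or 17 (adjusted p = 0.0708). Usp18, which removes ISG15 and blocks the type I receptor, rose by 0.96 (SE 0.27, edgeR adjusted p = 0.00656). Irf7, the transcription factor that amplifies type I interferon, was 24.2, 29.7 and 49.9 CPM on the control diet and 26.1, 49.0 and 62.6 on the Western diet, and rose by 0.56 (SE 0.18, edgeR adjusted p = 0.0182). Its ranges overlapped as well. Stat2 and Irf9, which belong to the type I complex, were not called (log2 fold change -0.16 and -0.09), and Stat2 ran from 71.1 to 93.9 CPM on the control diet and from 64.6 to 86.2 on the Western diet. Without control liver 20, Stat2 was called lower (edgeR adjusted p = 0.0462).

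Among the sensors, Zbp1, which binds left-handed nucleic acid, rose by 1.04 (SE 0.28, edgeR adjusted p = 0.00573), from a median of 6.01 to 13.6 CPM. Dhx58 (0.37) and Eif2ak2 (0.27), the RNA-activated kinase that halts translation, were called by edgeR with smaller changes, and lost the call in 12 and 6 of the 16 fits without 1 liver (highest adjusted p 0.112, without Western diet liver 17, and 0.0587, without liver 14). By contrast, Ifih1 (0.20, adjusted p = 0.0635) and Ddx58 (0.10, adjusted p = 0.33), which encode the RNA sensors MDA5 and RIG-I, were not. In the group of PARP and TRIM genes, Trim30a rose by 0.89 (SE 0.22) and Parp14 by 0.34 (SE 0.13, a call lost in 12 of 16 fits, highest adjusted p 0.157 without liver 14). Parp9 (-0.15) and its partner Dtx3l (-0.08), whose exons overlap in antisense over 458 bases, were not called. Trim21, the cytosolic antibody receptor, had medians of 9.47 and 9.62 CPM.

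The GTPases did not move as one on the Western diet. Gbp2 was 2.73, 5.93 and 9.69 CPM on the control diet and 5.42, 10.8 and 30.6 on the Western diet, and rose by 1.32 (SE 0.30, edgeR adjusted p = 0.00138), with overlapping ranges. Gbp3 rose by 0.68 (SE 0.26, edgeR adjusted p = 0.0406), from a median of 7.03 to 13.2 CPM, a call lost in 10 of the 16 fits without 1 liver (highest adjusted p 0.125, without Western diet liver 14). Gbp7 differed by 0.36 (edgeR adjusted p = 0.0904), and it shares 80.5% identity over 1695 bases with Gbp3. The immunity-related GTPases Iigp1 (-0.26), Igtp (-0.19) and Irgm1 (0.01) were not called. Iigp1 was called lower in 3 fits, without Western diet liver 23, control liver 26 or control liver 27 (lowest edgeR adjusted p 0.0286). Iigp1, the most abundant of the 6 per kilobase, was 201.7, 289.6 and 348.6 CPM on the control diet and 182.6, 222.7 and 302.9 on the Western diet. Irgm1 was 52.5, 64.6 and 89.1 CPM and then 52.2, 63.1 and 91.9, nearly the same range.

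**Figure D2:**
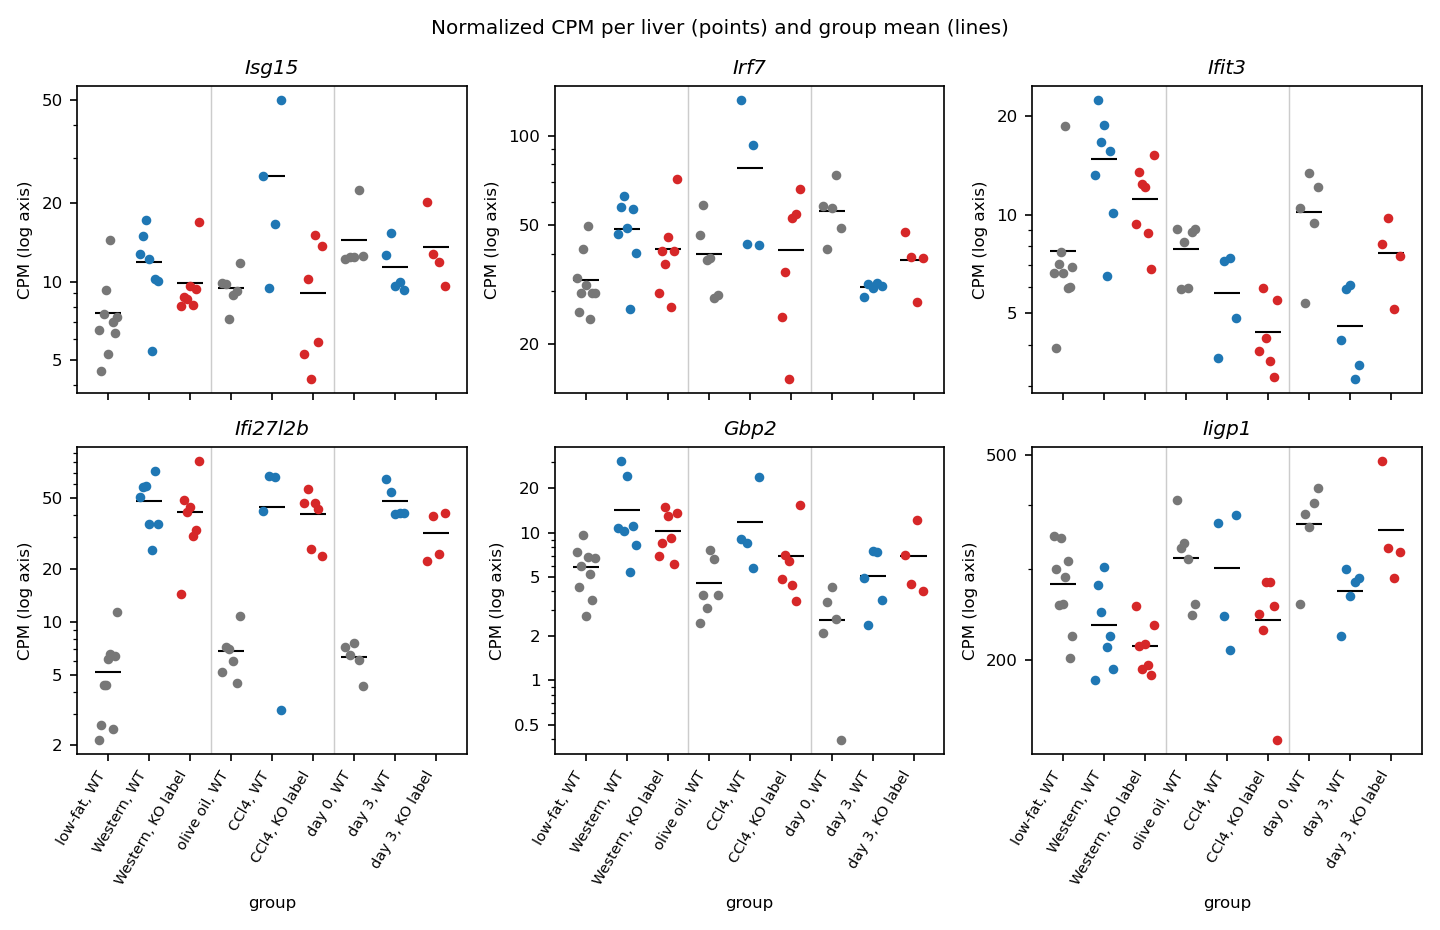
Each point is the CPM of 1 liver on a log axis for Isg15, Irf7, Ifit3, Ifi27l2b, Gbp2 and Iigp1 in the 9 groups, and the short lines are group means. Ifi27l2b sits above its unchallenged livers in all 3 experiments, apart from CCl4 liver 34 at 3.15 CPM, while Iigp1 stays between 139 and 487 CPM in all livers.

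The strength of the programme differed between livers of one diet group. Western diet liver 14 was the highest of its group for 28 of 46 members (18.6% of all genes peaked there) and liver 32 the lowest for 38 (18.0%). The mean of the 40 type I-like members, as a log2 difference from control, was 0.007 in liver 32 and 1.18 in liver 14, with a group mean of 0.705 ± 0.387 (SD, n = 7). The GTPase mean was 0.288 ± 0.458 (SD, n = 7). Leaving out 1 liver at a time gave between 20 called members (without liver 14 or without liver 17) and 31 (without liver 32), and 20 members were called in every one of these fits. The other 9 (Cmpk2, Dhx58, Eif2ak2, Gbp3, Herc6, Ifit1, Ifit3b, Isg15 and Parp14) each lost the call in at least 1 of them. Without livers 32 and 36 together, 32 were called.

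The libraries carry 2 sequencing indices (i5) in each diet group, and the response was also fitted within each. Within index D501 (4 control and 3 Western diet livers) 27 members were called and the type I-like median was 0.968. Of all 13008 genes tested there, 3645 were called, 1987 of them higher. Within index D502 (5 and 4 livers, livers 32 and 36 included) 6 were called (Ifi27l2a, Ifi27l2b, Ifit2, Oas2, Oas3 and Oasl2) and the median was 0.370. Fewer genes were called there as a whole, 1401 of 13473 tested and 959 of them higher. With the index as a term of the fit over all livers, 28 were called. The difference between the indices was not tested.

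Between livers labelled knockout and wild type on the same diet, no member passed the adjusted test. edgeR called 0 of 46 members, against 0.0154% of all genes tested, and at an unadjusted p under 0.05 it marked 1 member lower, where 2.73% of all genes were lower at that level. The fold change was below 0 for 43 of 46 members, against 50.4% of all genes, with a median of -0.158 (type I-like -0.148, GTPases -0.172). DESeq2 and limma with quality weights also called 0. Single livers moved these values. The count at the unadjusted level was 9 without wild-type liver 32, 6 without knockout-labelled liver 35 and 0 without wild-type liver 14 or knockout-labelled liver 1, 15 or 33. The type I-like median ran from -0.057 (without wild-type liver 14), with -0.071 without knockout-labelled liver 33, to -0.251 (without wild-type liver 32). Without livers 1, 32 and 36 together the count was 13.

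Other marker lists lay on the same side of 0. All 8 monocyte and macrophage markers (median log2 fold change -0.325), all 8 mitosis genes (-0.394) and all 4 natural killer and T cell markers tested (-0.66) had fold changes below 0, and 0 of them were called. Knockout-labelled liver 1 had a mitosis gene mean of -0.11 and a monocyte and macrophage marker mean of -0.088 as log2 differences from the control diet, the lowest of its group, with a type I-like mean of 0.279. The part of these lists and of liver 1 in the member values was not tested.

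The member with the smallest p was Ifit2. It was 3.65, 7.25 and 12.6 CPM in knockout-labelled livers against 5.34, 13.4 and 21.6 in wild type, a log2 fold change of -0.72 (SE 0.31, edgeR unadjusted p = 0.0275, adjusted p = 0.813). The ranges overlapped between 5.34 and 12.6 CPM. Rsad2 (6.53, 11.1 and 17.1 CPM; log2 fold change -0.40), Mx1 (-0.49) and Ifit1 (-0.44) followed. Isg15 was 8.02, 8.75 and 16.9 CPM (-0.25, SE 0.23), Irf7 26.6, 40.9 and 71.5 (-0.21, SE 0.20) and Ifi27l2b 14.3, 42.0 and 81.3 (-0.19, SE 0.30), each spanning most of the wild-type range. Among the members named here, Bst2 (0.00, SE 0.11), Stat2 (0.03, SE 0.08), Irgm1 (-0.07, SE 0.12) and Iigp1 (-0.14, SE 0.12) had the narrowest errors. Gbp2 (-0.47, SE 0.31), Gbp3 (-0.22, SE 0.27), Ifit3 (-0.40, SE 0.27) and Oasl2 (-0.40, SE 0.27) had wider ones.

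Index D501 holds 5 of 7 knockout-labelled and 3 of 7 wild-type livers. Within D501 the type I-like median was -0.383 and the GTPase median -0.305, and 17 members were lower at an unadjusted p under 0.05. Within D502, with 2 knockout-labelled livers and with wild-type livers 32 and 36, the type I-like median was 0.0261 and the GTPase median -0.0815, and 0 members were lower at that level. Both called 0 members. With the index as a term of the fit over all livers, 0 members were called, 1 was lower at an unadjusted p under 0.05, and the type I-like median was -0.194.

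**Figure D3:**
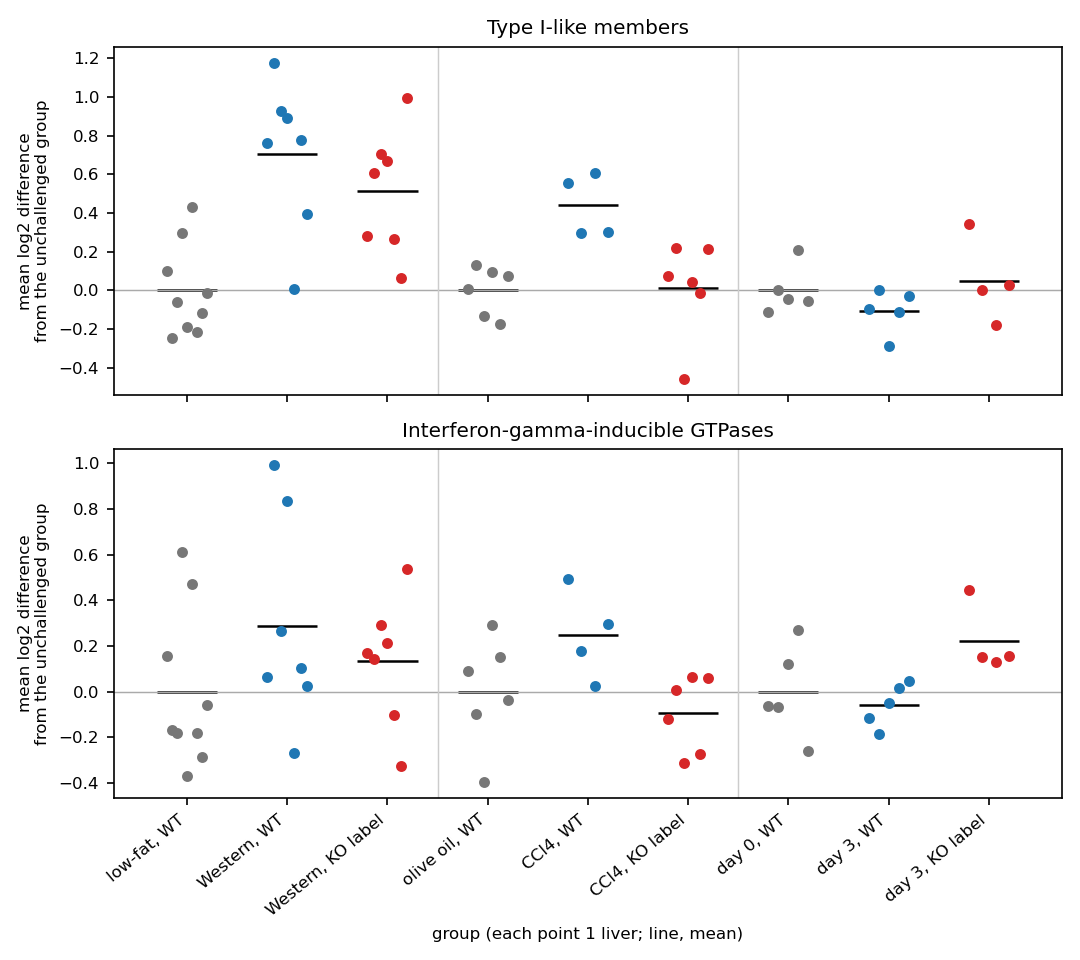
Points are livers, and lines are group means. The vertical axis is the mean log2 difference in CPM from the unchallenged wild-type livers of the same experiment. It is taken over the type I-like members tested (40 on the diet, 39 after CCl4 and 36 in the hepatectomy experiment) and over the 6 GTPases. Western diet type I-like means run from 0.007 to 1.18, and in the CCl4 experiment the 6 knockout-labelled livers lie below the 4 wild-type livers in the type I-like panel.

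CCl4, a toxin that kills the hepatocytes around the central vein, raised some members and lowered 1. In wild-type livers 3 days after injection, 11 of 45 members tested were called higher than after olive oil and 1 lower (edgeR), where 20% of all 11663 genes tested were called, 11.1% higher and 8.87% lower. Type I-like members had a median log2 fold change of 0.330 (9 of 39 higher, 1 lower) and the GTPases of 0.0107 (2 of 6 higher), against 0.0541 over all genes. Monocyte and macrophage markers summed to 37.2 to 105.7 CPM after olive oil and 229.2 to 433.1 after CCl4 (5 of 7 tested called higher). All 8 mitosis genes and 1 of 3 tested neutrophil markers were called higher, and 2 of 5 sinusoidal endothelial markers lower. The part of these cells was not tested. Livers 4, 5 and 7 were sequenced with index D503 and liver 34 with D505, while olive oil livers had D504 or D505, so index and treatment cannot be fully told apart. With the index as a term, 8 members were called and the calls of Ifi27l2b, Ifi27l2a, Gbp3, Trim21 and Lgals3bp were lost.

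A few members stood higher in all 4 CCl4 livers. Oas1a was 8.68, 8.00, 9.27 and 7.26 CPM in livers 4, 5, 7 and 34, against 0.547, 1.46 and 2.83 (lowest, median and highest) after olive oil, a log2 fold change of 2.33 (SE 0.36, edgeR adjusted p = 0.000724) with no overlap. Oasl2 lay at 9.27 to 12.9 CPM against 4.51 to 8.09, again with no overlap, and rose by 0.95 (SE 0.28, edgeR adjusted p = 0.0261). Gbp3 lay at 16.0, 10.8, 11.2 and 11.6 CPM against 5.20 to 9.06, and rose by 0.82 (SE 0.27, edgeR adjusted p = 0.0408). These were the 3 of 45 members higher without overlap, a share slightly below the 7.91% of all genes. The Oasl2 and Gbp3 calls were close to the threshold: leaving out 1 liver ended that of Oasl2 in 5 of 10 fits (highest adjusted p 0.0664, without CCl4 liver 5) and that of Gbp3 in 9 of 10 (highest adjusted p 0.123, without CCl4 liver 4).

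Ifi27l2b rose in 3 of the 4 livers. It was 42.5, 66.9 and 66.0 CPM in livers 4, 5 and 7 and 3.15 in liver 34, against 4.51, 6.46 and 10.8 after olive oil, a log2 fold change of 2.73 (SE 0.51, edgeR adjusted p = 0.00208). Liver 34 lay below all olive oil livers. Bst2 had the same shape, at 184.5, 154.6, 214.8 and 37.0 CPM against 94.7 to 137.2, and was not called (0.35, SE 0.35, edgeR adjusted p = 0.515). Ifi27l2a rose by 1.78 (SE 0.40, edgeR adjusted p = 0.00636) and the secreted glycoprotein gene Lgals3bp by 0.78 (SE 0.22, edgeR adjusted p = 0.0202), a call lost without CCl4 liver 4 (adjusted p = 0.0734) or 5 (adjusted p = 0.0634). Irf7, at 131.7, 43.2, 93.2 and 42.9 CPM against 28.5 to 58.5, differed by 0.96 on the log2 scale (edgeR adjusted p = 0.0833), which was called without liver 34 (1.16, adjusted p = 0.0461).

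Other calls rested on liver 34. Rsad2 was 35.4, 8.79, 8.22 and 390.5 CPM in livers 4, 5, 7 and 34, against 3.09, 11.1 and 16.6 after olive oil, a log2 fold change of 3.32 (SE 1.09, edgeR adjusted p = 0.0415) that became 0.65 (adjusted p = 0.689) without liver 34. Oasl1 was 21, 19.5, 26.8 and 183.3 CPM against 9.52 to 26.5, and its log2 fold change went from 1.97 (edgeR adjusted p = 0.0291) to 0.49 (adjusted p = 0.469). Isg15 was 25.6, 9.46, 16.6 and 50.1 CPM against 7.21 to 11.8, and went from 1.42 (edgeR adjusted p = 0.021) to 0.86 (adjusted p = 0.123). Gbp2 was 9.13, 8.53, 5.77 and 24.0 CPM against 2.46 to 7.65, and went from 1.35 (edgeR adjusted p = 0.0477) to 0.75 (adjusted p = 0.262). Trim30a went from 1.15 (edgeR adjusted p = 0.0236) to 0.71 (adjusted p = 0.129). The Rsad2 call was also lost without any 1 of the 6 olive oil livers, and those of Gbp2 and Oasl1 in 7 and 4 of the 10 fits without 1 liver. Limma with quality weights called none of these 5 genes. Without liver 34, 8 members were called (Ifi27, Ifi27l2a, Ifi27l2b, Ifi44, Irf7, Lgals3bp, Oas1a and Trim21).

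Liver 34 also had the highest neutrophil marker sum of its group (173.8 CPM, against a lowest of 2.67), the low mitosis gene mean given above, and its own index within the group. Its hepatocyte marker mean, as a log2 difference from olive oil, was -1.22, against -0.183 to 0.232 in livers 4, 5 and 7. It was the highest of its group for 13 of 45 members (36.8% of all genes) and the lowest for 22 (38.5%), so it stood apart over all genes and not only the members. Knockout-labelled liver 35, with the same index D505, had a Rsad2 level of 124.9 CPM against 4.54 to 8.80 in the other 5 livers of its group. Whether any of these accounts for the Rsad2, Oasl1 and Isg15 values was not tested.

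**Figure D4:**
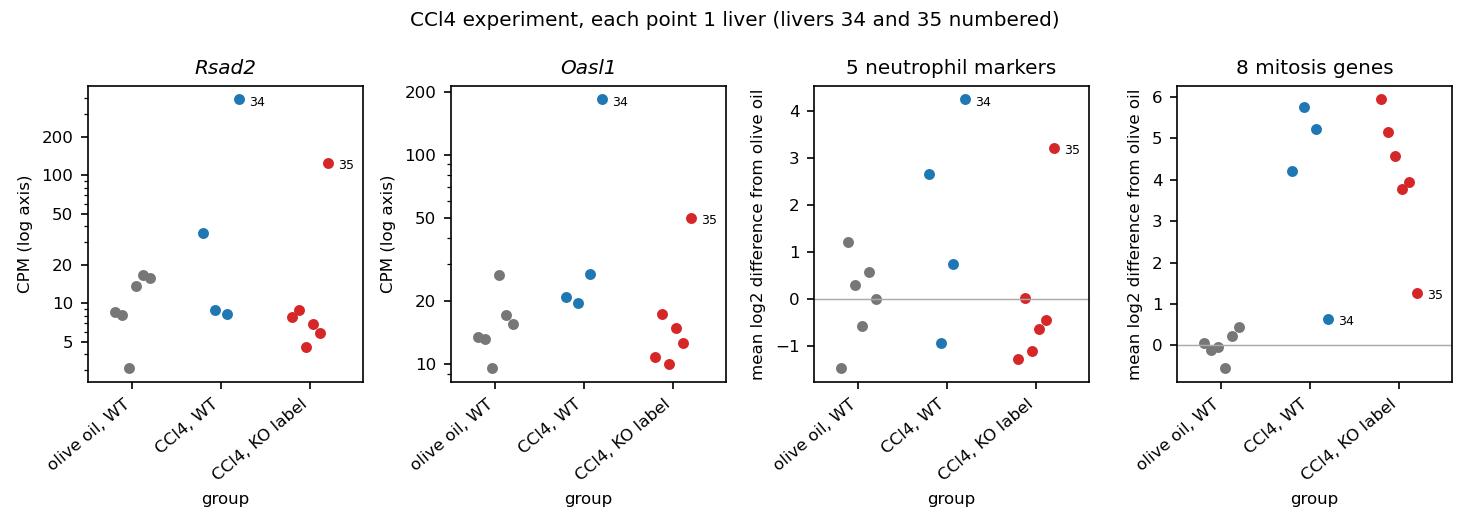
Points are livers of the CCl4 experiment by group, with livers 34 and 35 numbered. The panels give CPM of Rsad2 and Oasl1 on log axes, and the mean log2 difference from olive oil of neutrophil markers and of 8 mitosis genes. The neutrophil mean is over the 3 of 5 listed markers that were tested. Livers 34 (390.5 CPM) and 35 (124.9 CPM) lie far above all others for Rsad2 and below the other CCl4 livers for the mitosis genes (0.646 and 1.26).

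The Ifit genes and most sensors and signal genes did not pass the test after CCl4. Ifit1 was 5.06 to 12.6 CPM against 6.29 to 15.1 after olive oil (log2 fold change -0.16, SE 0.37), Ifit3 was 3.65 to 7.35 against 5.95 to 9.06 (-0.43, SE 0.26, edgeR adjusted p = 0.26), and Stat2 was 59.7 to 95.6 against 76.1 to 96.6 (-0.16, SE 0.17). Trim21 was the member called lower: it lay at 3.42 to 6.12 CPM against 7.39 to 12.2, without overlap, and fell by 0.83 on the log2 scale (SE 0.25, edgeR adjusted p = 0.0262), while 9.02% of all genes were lower without overlap. That call was lost without olive oil liver 28 (adjusted p = 0.0577), CCl4 liver 4 (adjusted p = 0.0769) or CCl4 liver 5 (adjusted p = 0.06). Iigp1 (208.9 to 383.2 CPM against 244.4 to 410.2) and Irgm1 (37.3 to 63.2 against 41.2 to 73.1) stayed within overlapping ranges and were not called. Over all fits without 1 liver, the number of members called ran from 6 (without olive oil liver 24) to 11, with 7 without CCl4 liver 5 or olive oil liver 27, and Ifi27l2a, Ifi27l2b and Oas1a were called in every one.

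After CCl4, livers labelled knockout had lower levels than wild type for most members, and none passed the adjusted test. edgeR called 0 of 45 (0.00857% of all genes were called), and DESeq2 and limma also called 0. At an unadjusted p under 0.05, 8 members were lower and 0 higher, where 2.8% of all genes were lower and 3.36% higher at that level. The fold change was below 0 for 40 of 45 members, against 50.9% of all genes, with a median of -0.374 (type I-like -0.408, GTPases -0.297) against -0.007 over all genes. A separate list of further interferon-induced genes, described below, lay nearer to all genes. Of its 44 genes tested, 27 were below 0, with a median of -0.0467. Over fits without 1 liver, the count of members lower at the unadjusted level ran from 3 (without knockout-labelled liver 9), with 5 without knockout-labelled liver 2, to 14 (without knockout-labelled liver 35), and the type I-like median was nearest to 0 without wild-type liver 7 (-0.254).

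Isg15 had the smallest p. It was 5.24, 10.2, 4.22, 15.2, 5.86 and 13.8 CPM in knockout-labelled livers 2, 8, 9, 12, 22 and 35, a log2 fold change of -1.48 (SE 0.40, edgeR unadjusted p = 0.00202, adjusted p = 0.654), and the groups overlapped between 9.46 and 15.2 CPM. Oasl1 (-1.69, SE 0.60, adjusted p = 0.744 by edgeR) was at 10.1 to 49.8 CPM against 19.5 to 183.3 in wild type. Oas1a lay at 2.27 to 6.33 CPM against 7.26 to 9.27 (-0.96, SE 0.34, edgeR adjusted p = 0.744) and was the only member lower without overlap, against 0.42% of all genes. Irf7 was 15.2, 43.9 and 66.1 CPM (lowest, median and highest; -0.91, SE 0.38), with 2 wild-type livers inside that range.

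Wider errors left the other members of this comparison less certain. Rsad2 differed by -2.05 (SE 1.05, edgeR adjusted p = 0.814), a difference that turned to 0.62 (SE 0.94) without wild-type liver 34 and was -4.01 (SE 0.92, adjusted p = 0.167) without knockout-labelled liver 35. Without liver 34, Oasl1 went to -0.22 (SE 0.42), Gbp2 to -0.16 (SE 0.43) and Isg15 to -0.91 (SE 0.37). With all livers, Oasl2 differed by -0.66 (SE 0.28), Gbp2 by -0.75 (SE 0.45), Ifit1 by -0.84 (SE 0.38) and Ifit3 by -0.41 (SE 0.27). Gbp3 (-0.37, SE 0.27), Iigp1 (-0.33, SE 0.22), Irgm1 (-0.17, SE 0.19), Bst2 (-0.37, SE 0.35), Ifi27l2b (-0.14, SE 0.48) and Stat2 (0.07, SE 0.17) were nearer to 0. The mean of the type I-like members was 0.440 ± 0.165 (SD, n = 4) in wild type, from 0.296 to 0.608, and 0.013 ± 0.250 (SD, n = 6) in knockout-labelled livers, from -0.459 to 0.218. The GTPase means were 0.249 ± 0.198 and -0.096 ± 0.166 (SD, same n). Monocyte and macrophage markers summed to 191.6 to 687.2 CPM in knockout-labelled livers against 229.2 to 433.1, and 0 of 7 tested were called between the genotype labels. Neutrophil markers lay lower as well. They summed to 1.57, 4.33 and 64.6 CPM (lowest, median and highest) in knockout-labelled livers and to 2.67, 35.7 and 173.8 in wild type. Ly6g was at 0 in knockout-labelled livers, as it was after olive oil. All 3 neutrophil markers tested had fold changes below 0 (median -1.83), 1 was lower at an unadjusted p under 0.05 and 0 were called. Their part in the member values was not tested.

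The label difference was also fitted without the livers that stood apart. Without livers 34 and 35 together, 14 members were lower at an unadjusted p under 0.05 and 0 were called, with a type I-like median of -0.419 and a GTPase median of -0.342. In that fit Rsad2 differed by -1.33 (SE 0.49) and Oasl1 by -0.78 (SE 0.26). Among libraries of index D503 alone (3 wild-type and 4 knockout-labelled livers), 10 were lower at that level, with a type I-like median of -0.456 and a GTPase median of -0.352.

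After partial hepatectomy, a share of the members near that of all genes was called, and most of those called were lower. Between day 0 and day 3 in wild-type livers, 2 of 42 members were called higher and 7 lower (edgeR), where 17.4% of all 11026 genes tested were called, 9.87% higher and 7.5% lower. The median log2 fold change was -0.136 for type I-like members (2 of 36 higher, 5 lower) and -0.272 for the GTPases (2 of 6 lower), against -0.0047 over all genes. Leaving out 1 liver at a time, the type I-like median ran from -0.277 (without day 0 liver 12) to -0.019 (without day 3 liver 14). All 8 mitosis genes were called higher, and 0 of 3 tested monocyte and macrophage markers were called (summed 48.6 to 78.5 CPM on day 0 and 44.2 to 134.8 on day 3). Of 5 sinusoidal endothelial markers, 3 were called lower, and the 1 neutrophil marker tested was higher. The part of these cells was not tested. Day 3 livers all carry index D507 and day 0 livers D505 or D506, so index and day cannot be told apart.

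Irf7 fell. It was 58.0, 41.5, 57.2, 73.6 and 49.0 CPM in day 0 livers 12 to 16, and 28.8, 31.7, 30.8, 32.0 and 31.3 in day 3 livers 12 to 16, a log2 fold change of -0.86 (SE 0.15, edgeR adjusted p = 0.000357). Every day 3 liver lay below every day 0 liver. Rtp4, a chaperone of receptors, went from 20.0, 28.8, 14.9, 16.8 and 25.5 CPM to 11.2, 14.8, 11.1, 12.1 and 11.6 (-0.79, SE 0.21, edgeR adjusted p = 0.0137), also without overlap. These were the 2 of 42 members lower without overlap, a share near the 5.92% of all genes.

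Ifit3 was 10.4, 5.37, 13.4, 9.43 and 12.2 CPM on day 0 and 4.15, 5.93, 6.08, 3.15 and 3.48 on day 3, with day 0 liver 13 inside the later range (-1.15, SE 0.29, edgeR adjusted p = 0.0085). Ifit1 went from 7.76 to 16.0 CPM around a median of 11.9 to 4.65 to 8.01 around a median of 6.30 (-0.96, SE 0.26, edgeR adjusted p = 0.0147), and lost the call without day 0 liver 15 (adjusted p = 0.0508). Trim21 went from 8.95, 6.21, 13.1, 4.98 and 10.6 CPM to 4.15, 5.64, 5.72, 3.68 and 5.80 (-0.81, SE 0.28, edgeR adjusted p = 0.0474). Iigp1 went from 256.7, 385.2, 363.1, 403.3 and 431.8 to 222.5, 300.2, 265.7, 283.9 and 288.1 (-0.43, SE 0.14, edgeR adjusted p = 0.0416). Irgm1 went from a median of 77.3 to 61.5 (-0.41, SE 0.13, edgeR adjusted p = 0.0405). The Trim21, Iigp1 and Irgm1 calls were near the threshold and each was lost in 7 or 8 of 10 fits without 1 liver (highest adjusted p 0.146 for Trim21, without day 0 liver 14).

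Ifi27l2b went the other way. It was 7.16, 6.5, 7.60, 6.03 and 4.31 CPM on day 0 and 64.1, 54.6, 40.8, 41.5 and 41.4 on day 3, a log2 fold change of 2.91 (SE 0.21, edgeR adjusted p = 3.15e-08). It was the only member higher without overlap, against 7.04% of all genes, and the rise was of the same order as on the Western diet (3.22) and after CCl4 (2.73). Ifi27l2a rose by 0.87 (SE 0.29, edgeR adjusted p = 0.0425), a call lost in 7 of 10 fits without 1 liver (highest adjusted p 0.13, without day 3 liver 12), while Ifi27 had a log2 fold change of -0.05 (SE 0.16).

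Isg15 was 12.2, 12.4, 12.5, 22.5 and 12.5 CPM on day 0 and 12.7, 15.4, 9.65, 9.98 and 9.28 on day 3, with overlap, and was not called (-0.33, SE 0.24, edgeR adjusted p = 0.39). Rsad2 (-0.43, SE 0.33), Oasl2 (0.02, SE 0.30), Stat2 (0.11, SE 0.12), Bst2 (0.07, SE 0.10), Gbp3 (-0.27, SE 0.29) and Gbp2 (0.99, SE 0.45, edgeR adjusted p = 0.149) were not called. Bst2 lay at 127.9 to 172.4 CPM on day 0 and 127.3 to 171.8 on day 3. Over fits without 1 liver, between 5 (without day 0 liver 16, day 3 liver 12 or day 3 liver 14) and 9 members were called, and Ifi27l2b, Ifit3, Irf7 and Rtp4 were called in every one.

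On day 3 after hepatectomy, most members were higher in livers labelled knockout than in wild type, and none passed the adjusted test. edgeR called 0 of 42 (0.154% of all genes were called), and DESeq2 and limma also called 0. At an unadjusted p under 0.05, 7 members were higher, where 4.7% of all genes were, and 2 were lower, where 4.38% were. The fold change was above 0 for 32 of 42, against 50.5% of all genes, with a median of 0.167 (type I-like 0.157, GTPases 0.383). Without knockout-labelled liver 17 the type I-like median was 0.0162 and the GTPase median 0.256, with 4 members in place of 9 at an unadjusted p under 0.05 in either direction, and without wild-type liver 14 the type I-like median was 0.0829. Liver 17 was the highest of its group for 27 of 42 members (26.6% of all genes).

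Trim21 had the smallest p. It was 11.6, 12.0, 9.88 and 9.87 CPM in knockout-labelled livers 17 to 20, above all 5 wild-type livers (3.68 to 5.80), a log2 fold change of 1.13 (SE 0.29, edgeR unadjusted p = 0.00082, adjusted p = 0.142), and it was the only member higher without overlap (1.51% of all genes). Ifi27l2b was 22.2, 39.5, 24.1 and 41.1 CPM, lower than or inside the wild-type range of 40.8 to 64.1 (-0.61, SE 0.19, edgeR adjusted p = 0.298). Rtp4 (0.71, SE 0.23, edgeR adjusted p = 0.318) was at 12.3 to 27.1 CPM against 11.1 to 14.8. Igtp, a GTPase of the parasite vacuole, was at 27.7 to 52.0 CPM against 24.7 to 31.2 (0.44, SE 0.16, edgeR adjusted p = 0.4).

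Iigp1 was 487.1, 330.7, 289.0 and 324.2 CPM in livers 17 to 20 (0.40, SE 0.15, edgeR adjusted p = 0.431), with liver 19 inside the wild-type range. Ifit3 was 8.12, 9.78, 5.14 and 7.47 CPM (0.75, SE 0.31), and Irf7 47.4, 39.1, 27.7 and 38.7 (0.31, SE 0.16, edgeR adjusted p = 0.585); in both, liver 19 was the lowest of its group and lay inside or below the wild-type range. Rsad2 differed by 0.83 (SE 0.34), Irgm1 by 0.37 (SE 0.14), Ifit1 by 0.45 (SE 0.29), Isg15 by 0.26 (SE 0.26), Gbp2 by 0.41 (SE 0.45) and Gbp3 by 0.28 (SE 0.31). Bst2 (0.16, SE 0.11), Oasl2 (0.07, SE 0.32) and Stat2 (-0.35, SE 0.13, edgeR adjusted p = 0.42) completed the set.

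The responses were set against each other in 1 joint edgeR fit of all 53 libraries (12646 genes tested), in which a difference is the log2 fold change in 1 experiment minus that in another. The experiments also differed in schedule and controls. By their library codes the diet libraries were a separate sequencing set, while CCl4 and hepatectomy libraries share a set code but were counted in separate tables. None of these differences can be told apart from the challenge. Western diet and hepatectomy differed in 8 of 46 members, all higher on the diet, where 3.53% of all genes differed and 1.53% were higher: Ifit3 (2.09, SE 0.40, edgeR adjusted p = 0.0016), the ISG15 ligase gene Herc6 (0.94), Irf7 (1.43), Ifit1 (1.65), Rtp4 (1.14), Oasl2 (1.55), Ifit3b (2.11) and Trim21 (0.86). Of these, Ifit3b was left out by the low-count filter in the hepatectomy fit, where it lay at 0.26 to 3.79 CPM. It also shares 97.8% identity with Ifit3 over 1700 bases, so the 2 are not separate evidence. The median over members was 0.757. Without Western diet livers 32 and 36, 14 members differed and all 8 were among them.

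CCl4 and hepatectomy differed in 5 members, all higher after CCl4 (6.09% of all genes differed, 2.29% higher): Rsad2 (3.72, SE 1.03, edgeR adjusted p = 0.0222), Irf7 (1.81, SE 0.41, edgeR adjusted p = 0.0051), Isg15 (1.73, SE 0.47, edgeR adjusted p = 0.0206), Oasl1 (1.78, SE 0.56, edgeR adjusted p = 0.0441) and Oas1a (2.18, SE 0.64, edgeR adjusted p = 0.0318). Without CCl4 liver 34, Irf7 (2.02) and Oas1a (2.25) were still called, joined by Lgals3bp and Ifi27, and Rsad2 (1.07, edgeR adjusted p = 0.563), Isg15 (1.19, adjusted p = 0.138) and Oasl1 (0.34, adjusted p = 0.74) were not.

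Western diet and CCl4 differed in 5 members (16.1% of all genes differed, 7.72% higher on the diet and 8.37% higher after CCl4). Trim21 (0.88, SE 0.25), Ifit3 (1.36, SE 0.39), Ifit2 (1.55, SE 0.51) and Oas3 (1.72, SE 0.61) were higher on the diet and Oasl1 (-1.66, SE 0.49, edgeR adjusted p = 0.0145) higher after CCl4. Without CCl4 liver 34 the Oasl1 difference was -0.23 (edgeR adjusted p = 0.745) and Oas3 was not called (adjusted p = 0.0688), while Trim21, Ifit2 and Ifit3 were. Ifi27l2b was called in none of the 3 differences.

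**Figure D5:**
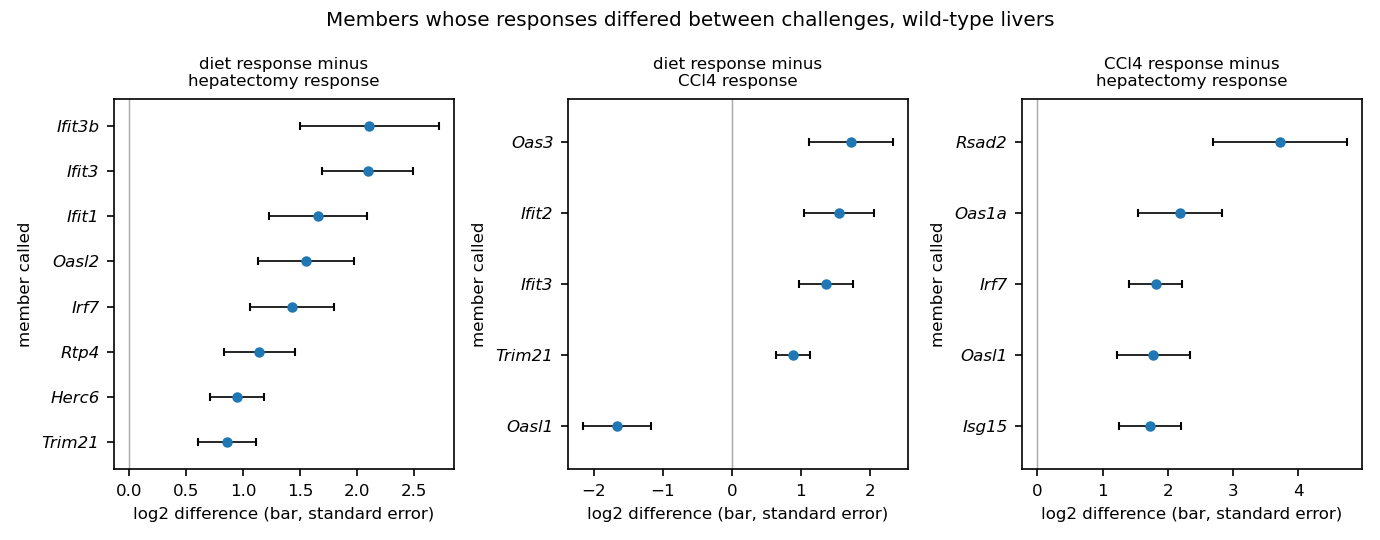
Points are the differences between 2 responses in the joint fit (log2 scale, horizontal axis) for the 8, 5 and 5 members called in each pair of experiments, with bars of 1 SE. All 8 members that separate the Western diet from hepatectomy lie to the right of 0, and Oasl1 at -1.66 is the member to the left when the diet is set against CCl4.

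The difference between the genotype labels was also compared between experiments, and 0 members passed for any pair. By edgeR, CCl4 minus Western diet gave 2 members at an unadjusted p under 0.05 (median -0.135; 0% of all genes called and 8.51% at that level), and hepatectomy minus Western diet gave 6 (median 0.373; 0.0158% called, 4.82% at that level). CCl4 minus hepatectomy gave 14 of 46 members at that level (median -0.466; 0.0395% of all genes called, 9.73% at that level), and 13 without CCl4 liver 34.

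The rest of the pathway was read from 2 further lists, of 32 genes for receptors, kinases, transcription factors and sensors that stand upstream, and 55 further interferon-induced genes. On the Western diet 11 of 26 tested upstream genes were called higher and 2 lower by edgeR (20.4% and 17% of all genes), with a median log2 fold change of 0.252. Il10rb, a receptor chain shared by interferon lambda, rose by 1.2 (SE 0.17), and Ifngr1, the ligand-binding chain of the interferon gamma receptor, by 0.70 (SE 0.12). Irf3 (-0.32, SE 0.08) and Mavs (-0.24, SE 0.07), which carry the signal of RNA sensors, were lower, and Irf1 (0.25, edgeR adjusted p = 0.127) was not called.

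Of the further induced genes, 23 of 51 were higher on the Western diet and 1 lower, with a median of 0.372. Mlkl, the executioner of necroptosis, rose by 1.27 (SE 0.17), Gbp9 by 1.21 (SE 0.18) and Slfn2 by 1.72 (SE 0.26). The chemokine genes Cxcl10 (1.60, SE 0.30, edgeR adjusted p = 0.000225) and Cxcl9 (0.90, SE 0.27, edgeR adjusted p = 0.0112) were higher, the latter not without Western diet liver 14 (adjusted p = 0.0679), and the immunoproteasome gene Psmb8 (0.18, SE 0.15) was not called.

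After CCl4, where 11.1% of all genes were called higher and 8.87% lower, 4 of 24 upstream genes were higher and 1 lower (median 0.402), and 1 of 44 further induced genes was higher and 3 lower (median 0.0781). Tlr7, an endosomal RNA receptor, rose by 2.52 (SE 0.54), from a mean of 0.814 to 4.90 CPM, and Ifngr1 by 0.92 (SE 0.19). Mavs fell by 0.80 on the log2 scale (SE 0.15, edgeR adjusted p = 0.00233), from a mean of 97.4 to 55.9 CPM. Cxcl9 was lower (-1.53, SE 0.35, edgeR adjusted p = 0.00661), from a mean of 10.6 to 3.64 CPM, as was Apol9b (-0.98, SE 0.22). Cxcl10 (1.48, SE 0.67, edgeR adjusted p = 0.13), Irf1 (-0.37, SE 0.20) and Psmb8 (0.30, SE 0.30) were not called.

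After hepatectomy, 1 of 22 upstream genes was called higher and 4 lower (median 0.0189), and 0 of 41 further induced genes were higher and 4 lower (median -0.132), where 9.87% of all genes were higher and 7.5% lower. At an unadjusted edgeR p under 0.05, 3 of the 41 were higher and 10 lower, where 1774 and 1482 of all 11026 genes tested were. Irf3 (-0.64, SE 0.10) and Mavs (-0.51, SE 0.11) were lower. Ifi47, an immunity-related GTPase, went from a mean of 51.1 to 24.6 CPM (-1.05, SE 0.15, edgeR adjusted p = 4.35e-05), and Gbp10 fell by 2.47 on the log2 scale (SE 0.64, edgeR adjusted p = 0.0103). Cxcl9 (-0.56, SE 0.34), Irf1 (0.02, SE 0.20) and Psmb8 (-0.18, SE 0.16) were not called.

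Between the genotype labels, 0 genes of either list were called by edgeR in any of the 3 experiments. The smallest p-values belonged to Slfn5 on the Western diet (-0.47, unadjusted p = 0.0243), to Adar, which edits double-stranded RNA, after CCl4 (-0.43, unadjusted p = 0.0405), and to Irf3 on day 3 after hepatectomy (0.40, SE 0.11, unadjusted p = 0.0014, adjusted p = 0.172). At an unadjusted p under 0.05, 3 of the 77 genes tested were lower and 0 higher on the Western diet, where 2.73% of all genes were lower. After CCl4, 1 of 68 was lower and 0 higher, where 2.8% of all genes were lower and 3.36% higher. After hepatectomy, 7 of 63 were higher and 1 lower, where 4.7% and 4.38% of all genes were. The median log2 fold change of the further induced genes between the labels was -0.167 on the Western diet (43 of 51 below 0). It was -0.0467 after CCl4 (27 of 44 below 0) and 0.0673 after hepatectomy (26 of 41 above 0). The upstream genes had medians of -0.134, -0.129 and 0.0067 in the same order.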

How the data were processed

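Gene-level read counts of 53 libraries in 3 deposited tables were used. Per the submitters' processing notes, the tools named are TopHat2 2.0.11 and HTSeq, and the build is GRCm38. The deposited values are whole-number counts per Ensembl gene, not normalised by the authors. Samples were grouped by genotype, treatment and time in the labels. Each experiment was fitted with its 3 groups in edgeR 4.0.16 (R 4.3.3; filterByExpr, TMM, quasi-likelihood test, adjusted p under 0.05 over all genes tested), and all libraries jointly for differences between experiments. Levels are TMM-normalised CPM, and liver means of members are over log2 CPM with a prior count of 2. Ensembl identifiers were named from GENCODE M21, transcripts were compared with BLAST 2.17.0, and promoter windows came from RefSeq. Alternatives were DESeq2 1.42.0, limma 3.58.1 with quality weights, other scalings and filters, the sequencing index and single libraries left out. The fits were tested on simulated data. Members, lists and the rule for named genes (13 members throughout, the largest called changes per role, or the 4 smallest p-values) were chosen with earlier results of these data known. Single-library precision rests on 2450358 to 15196537 counts. No p-value was computed over the members as a set.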

Additional observations from a re-analysis of the deposited data

Results flagged for a closer look

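Single livers stood apart from their group for 13 of 135 sets of livers and values tested with Dixon's ratio. The ratio marks about 1 in 20 sets where values are normal and the sets are independent. Here every CPM value marked was the highest of its group, and the members share the same livers. The 13 can therefore not be set against that rate. On the control diet, liver 21 had 14.5 CPM of Isg15 (the others 4.52 to 9.27) and 18.6 of Ifit3 (3.93 to 7.71), and liver 27 had 11.3 of Ifi27l2b (2.12 to 6.58). Among knockout-labelled Western diet livers, liver 35 had 16.9 CPM of Isg15 (8.02 to 9.61) and 71.5 of Irf7 (26.6 to 45.7). After CCl4, wild-type liver 34 had 390.5 CPM of Rsad2 (8.22 to 35.4) and wild-type liver 4 had 16.0 of Gbp3 (10.8 to 11.6). Knockout-labelled liver 35 had 124.9 CPM of Rsad2 (4.54 to 8.80) and 15.5 of Gbp2 (3.46 to 7.04), and knockout-labelled liver 9 had a type I-like mean of -0.459 (-0.012 to 0.218 in the others). Olive oil liver 24 had 15.1 CPM of Ifit1 (6.29 to 9.01). In the hepatectomy experiment, day 0 liver 15 had 22.5 CPM of Isg15 (12.2 to 12.5), and knockout-labelled liver 17 had a GTPase mean of 0.444 (0.131 to 0.154).

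Responses that differed between experiments by the joint edgeR fit are given on the log2 scale. After CCl4 minus after hepatectomy, they were Irf7 1.81, Isg15 1.73, Rsad2 3.72, Oas1a 2.18 and Oasl1 1.78. On the Western diet minus after CCl4, they were Trim21 0.88, Ifit3 1.36, Oasl1 -1.66, Ifit2 1.55 and Oas3 1.72. On the Western diet minus after hepatectomy, they were Ifit3 2.09, Herc6 0.94, Irf7 1.43, Ifit1 1.65, Rtp4 1.14, Oasl2 1.55, Ifit3b 2.11 and Trim21 0.86. The low-count filter had left Ifit3b out of the hepatectomy fit.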

How the results depend on the processing

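No result past its threshold changed direction under an alternative that was run. Among values that did not pass, the Rsad2 difference between the labels after CCl4 changed sign without wild-type liver 34, and the type I-like median between the labels on the Western diet was 0.0261 within D502. Alternatives added after seeing the data were the fits within D501 and D502 and the joint fits without liver 34 or without livers 32 and 36. On the Western diet, 6 members were called within index D502, where 1401 of all 13473 genes tested were called. The type I-like median was 0.968 within D501 and 0.370 within D502, and the cause was not tested. Without Western diet livers 32 and 36, 14 members differed from hepatectomy in place of 8. Leaving out 1 liver at a time, members called after CCl4 ran from 6 to 11 and the type I-like median from 0.191 (without liver 7) to 0.394. After hepatectomy they ran from 5 to 9, with a type I-like median from -0.277 (without day 0 liver 12) to -0.019. For the genotype labels on day 3, the type I-like median ran from 0.0162 to 0.205 and the GTPase median from 0.256 to 0.434, the lower ends without liver 17. The day 0 and day 3 livers share numbers 12 to 16. Deviations from the group means correlated between same-numbered livers at 0.048, -0.011, -0.044, 0.074 and 0.106. Only 15 and 16 matched best with their own number. These correlations cannot decide whether the same mice gave both, because the deviations were compared across surgery. The main fit left the livers unpaired. With a replicate block on these 2 groups alone, 7 members were called (1 higher, 6 lower), and the calls of Trim21 and Ifi27l2a were lost; the fit of the 2 groups without the block gave the same counts and lost the same 2 calls. Of other fits, 75 of 77 counts of called members, and 67 of 73 without 1 liver, stayed within 1.5 times. This tally takes 0 against 0 as the same, which holds for every comparison between the labels, where no fit called a member. The 6 that moved without 1 liver were all wild-type responses to CCl4 (6 or 7 members in place of 12) or hepatectomy (5 in place of 9). Depth limits members with few counts, such as Oas1g (0 to 5.09 CPM) and Oas3 (0.297 to 3.41 CPM) in the hepatectomy experiment, where the filter left both out.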
